A study of Homo sapiens with 6 samples.

Results

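The genes described here are the Wnt ligands, their receptors and the inhibitors, transducers and targets of the pathway, as transcribed in human forebrain organoids with and without amyloid-β peptide. They were chosen by gene symbol, with no use of their values: every gene named WNT or FZD (Frizzled) with a number, DKK1 to DKK4, SFRP1 to SFRP5 and RSPO1 to RSPO4 was taken, together with LRP5, LRP6, CTNNB1, AXIN1, AXIN2, LEF1, TCF7, TCF7L1, TCF7L2, APC, NOTUM, NKD1, RNF43, ZNRF3, LGR4 and LGR5. The rule found 57 of the 18056 genes in the table. All 6 libraries were made from polyadenylated RNA of dorsal forebrain organoids grown from 1 induced pluripotent stem cell line, DYR0100, whose labelled genotype is WT, so the results describe 1 line. In 3 libraries the organoids had received vehicle, and in the other 3 they had received 5 µM Aβ42, for 6 days. The labels place all 6 in Batch1, number the replicates 1 to 3 in each group, and give neither the age of the organoids nor the number of organoids in a library.

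Wnt ligands are secreted, lipid-modified proteins that bind Frizzled receptors, and with the co-receptors LRP5 and LRP6 they stop a destruction complex built around APC and AXIN from marking β-catenin, the product of CTNNB1, for degradation. Stabilised β-catenin then works with TCF and LEF factors at target genes, of which AXIN2 and NKD1 are widely used readouts, while R-spondins raise the number of receptors at the cell surface by restraining the ubiquitin ligases RNF43 and ZNRF3. In the developing forebrain, Wnt ligands and R-spondins made at the cortical hem, a signalling centre at the dorsal midline, pattern the neighbouring cortex and hippocampus, and Wnt signals also act on cortical progenitors.

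The DNA before the start site is shown first for WNT5A, WNT8B, RSPO3 and SFRP2. These secreted components were lower under Aβ42 in the comparison blocked on replicate number, described further on. RefSeq promoter entries (GRCh38.p14) matched 38 of the 57 genes, with 46 promoters between them. The 250 bases before the start lie at chr3:55487307-55487556 on the minus strand for WNT5A, at chr10:100462759-100463008 on the plus strand for WNT8B, at chr6:127118421-127118670 on the plus strand for RSPO3 and at chr4:153789084-153789333 on the minus strand for SFRP2. Each is written 5′ to 3′ along its gene, and capitals mark TAATTA, a core shared by many homeodomain sites.
WNT5A: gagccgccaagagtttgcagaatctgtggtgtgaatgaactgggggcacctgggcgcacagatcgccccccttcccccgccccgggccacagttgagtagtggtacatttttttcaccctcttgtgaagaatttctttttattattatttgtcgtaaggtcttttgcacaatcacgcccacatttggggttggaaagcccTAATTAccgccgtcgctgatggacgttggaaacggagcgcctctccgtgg
WNT8B: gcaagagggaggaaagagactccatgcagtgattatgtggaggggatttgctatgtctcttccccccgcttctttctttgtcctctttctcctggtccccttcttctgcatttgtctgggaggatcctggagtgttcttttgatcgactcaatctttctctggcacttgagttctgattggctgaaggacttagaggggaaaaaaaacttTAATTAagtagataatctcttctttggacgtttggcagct
RSPO3: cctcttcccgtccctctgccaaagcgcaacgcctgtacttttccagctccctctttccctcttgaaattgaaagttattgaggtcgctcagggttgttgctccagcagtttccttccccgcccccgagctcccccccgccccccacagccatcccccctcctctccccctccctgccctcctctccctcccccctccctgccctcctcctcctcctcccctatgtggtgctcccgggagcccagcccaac
SFRP2: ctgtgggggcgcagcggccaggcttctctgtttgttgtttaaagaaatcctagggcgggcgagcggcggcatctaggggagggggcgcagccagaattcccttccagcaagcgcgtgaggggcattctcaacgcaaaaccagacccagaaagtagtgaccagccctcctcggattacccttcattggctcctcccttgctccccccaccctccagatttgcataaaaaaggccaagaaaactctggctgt

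TAATTA begins 50 bases before the start in WNT5A and 40 bases before it in WNT8B. It reads the same on both strands, and it was searched for after these sequences had been looked at. It occurred in 2 of the 46 promoters (4.35%), these WNT5A and WNT8B promoters, and in 4.35% of all 35116 promoters of the same length, so its share was that of the background. A second WNT5A promoter, at chr3:55481399-55481648 on the minus strand, held no match. The TCF and LEF letters CTTTGAT and CTTTGAA, searched on both strands, were found in 1 of the 46 promoters (2.17%; CTTTGAA in DKK1), against 5.94% of all promoters. A match of letters is a description of the window and not evidence of a bound factor.

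The labelled tissue was checked on its markers before the Wnt genes were compared. EMX2, a transcription factor of the dorsal telencephalon, stood at 31.97 to 40.86 TPM (a transcript level scaled for gene length and library size). Of the listed pluripotency markers, NANOG stood at 0 to 0.16 TPM, LIN28A at 0 to 0.04 TPM and POU5F1 at 1.71 to 3.66 TPM. The microglial genes C1QA, C1QB and TREM2 had no counts. AIF1, CX3CR1, P2RY12 and CSF1R, the other microglial genes listed, had 0 to 7 counts in a library. Libraries held 16465390 to 16742958 estimated counts, and the biological coefficient of variation was 6.75%. Over 12186 well-counted genes, vehicle and Aβ42 libraries with the same replicate number deviated together from their group means, with correlations of 0.181, 0.388 and 0.129 for numbers 1, 2 and 3. The numbers were therefore taken to pair the libraries, on the data alone. Correlations between unlike numbers were not computed. Deviations within a group are tied to each other, so the 3 values are not separate evidence of pairing. Values with replicate number as a block rest on this assumption and are given beside those without it. The libraries numbered 2 stood apart on several Wnt genes, and values without them are given where they matter. Leaving both out was chosen after seeing the data. Aβ42 replicate 2 was the treated library nearest to vehicle in 6 of the 8 Wnt genes called below with the block. Its omission therefore enlarges those differences.

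Of the 57 Wnt genes, 43 had enough counts to be tested, and these passed a filter on low counts that a gene high in 1 group can pass through that group. WNT6 and FZD10 had no counts in any library. Another 12 had between 0 and 16 counts in each library: WNT1, WNT2, WNT3A, WNT8A, WNT9B, WNT10A, WNT16, DKK1, DKK2, DKK4, LGR5 and RSPO4. A level of 3 counts, the upper limit that a count of 0 allows for counting error alone, corresponds to 0.178 to 0.183 CPM (counts relative to the TMM-scaled library total). WNT3A, the classical hem ligand, had 1 count over all 6 libraries, and WNT1, a midbrain and dorsal neural tube ligand, had 2.

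Among ligands the levels were close together and no single one dominated. WNT7A, a ligand of cortical progenitors, averaged 9.47 TPM over the 6 libraries, WNT2B, a hem ligand, 8.50 TPM and WNT5B, a ligand best known for β-catenin-independent signalling, 7.46 TPM. They were followed by WNT10B at 6.49, WNT8B at 4.81, WNT3 at 3.36, WNT9A at 2.69, WNT4 at 2.07, WNT7B at 1.43, WNT5A at 1.26 and WNT11 at 1.20 TPM. Every neighbouring pair in this order overlapped in range over the libraries, so the order of neighbours is not resolved. As shares of the summed ligand TPM, WNT7A made up 16.3% to 22.04% of a library, WNT2B 16.2% to 18.7% and WNT5B 14.1% to 15.8%.

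The most abundant receptors had higher levels than any ligand, while FZD5 and FZD9 were as low as the low ligands. FZD3, a receptor required for axon guidance, averaged 46.1 TPM, FZD8, a receptor of cortical progenitors, 41.1 TPM and FZD7 34.5 TPM. FZD2 at 15.3, FZD4 at 10.9, FZD1 at 10.1, FZD6 at 8.58, FZD9 at 1.71 and FZD5 at 1.16 TPM came after them. Ranges of neighbours were apart between FZD7 and FZD2, between FZD2 and FZD4 and between FZD6 and FZD9, and overlapped elsewhere. Outside these families, 1 or 2 genes held most of each role. SFRP1, a secreted decoy that binds Wnt proteins, averaged 375 TPM and DKK3, a divergent Dickkopf protein, 229 TPM, and they made up 57.8% to 64.2% and 34.5% to 40.9% of the antagonist TPM. CTNNB1 averaged 285 TPM and APC, the scaffold of the destruction complex, 129 TPM. RSPO3 held 57.4% to 76.6% of the R-spondin and LGR TPM, ZNRF3 89.8% to 93.2% of that of the 2 ubiquitin ligases, LRP6 61.4% to 66.5% of that of the co-receptors, and TCF7L2 37.2% to 41.9% of that of the TCF and LEF factors.

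**Figure D1:**
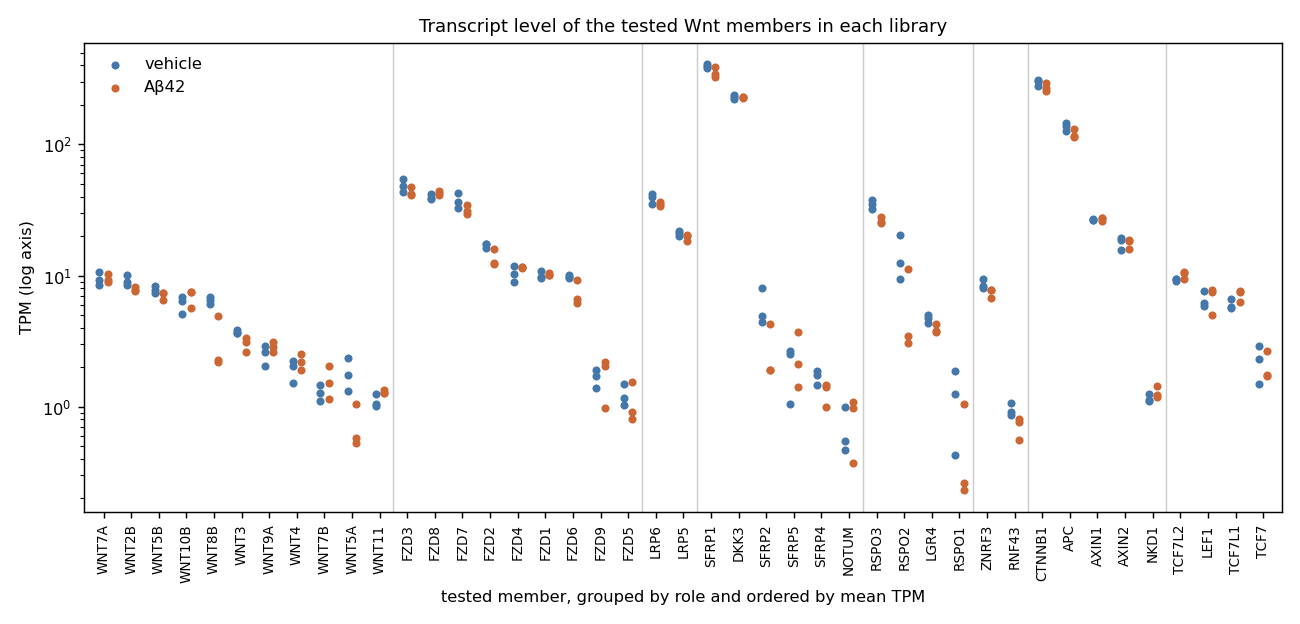
Expression of the tested Wnt genes in TPM, on a log axis, grouped by role, with 1 point per library in vehicle and Aβ42 organoids. SFRP1, CTNNB1 and DKK3 lie above 200 TPM, while the ligands average between 1.20 and 9.47 TPM.

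The main comparison asks which Wnt genes differed between organoids given Aβ42 and vehicle. Without a block, 0 of the 43 tested Wnt genes had an adjusted p under 0.05 in edgeR's quasi-likelihood test with Benjamini-Hochberg adjustment, as was so for 0% of the 13842 genes tested. At an unadjusted p under 0.05, 9 Wnt genes were lower, where 11.5% of all tested genes were, and 1 (FZD8) was higher, where 12.4% were. With replicate number as a block, 8 passed after adjustment and all 8 were lower: WNT5A, WNT8B, FZD2, FZD3, FZD6, SFRP2, RSPO2 and RSPO3. In that fit 7.05% of all tested genes were lower and 7.12% higher. The other tools run without a block gave 1 Wnt gene with DESeq2 (FZD3) and 0 with limma-voom. As a description of the whole group, the median log2 fold change (Aβ42 over vehicle) was -0.08 over the 43 Wnt genes and 0.0032 over all genes, with 25 Wnt genes below 0 and 18 above.

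CPM values of the groups did not overlap for 12 of the 43. In 10 of these all 3 Aβ42 libraries lay below all vehicle libraries (WNT2B, WNT3, WNT5A, WNT8B, FZD2, FZD3, FZD6, SFRP2, RSPO3 and RNF43), against 13.4% of all tested genes. In the other 2 (WNT11 and TCF7L2) they lay above, against 13.6%. RNF43 had 25 counts in both vehicle replicate 3 and Aβ42 replicate 1, which scaled to 1.525 and 1.524 CPM. On TPM, FZD3 and TCF7L2 overlapped between groups, while LGR4 and ZNRF3 were separate. Paired by number, 20 Wnt genes were lower in all 3 pairs and 6 higher in all 3, where 24.6% and 25.6% of all tested genes were. All of these differences are in RNA per library, in which fewer cells of a type and less RNA per cell cannot be told apart.

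**Figure D2:**
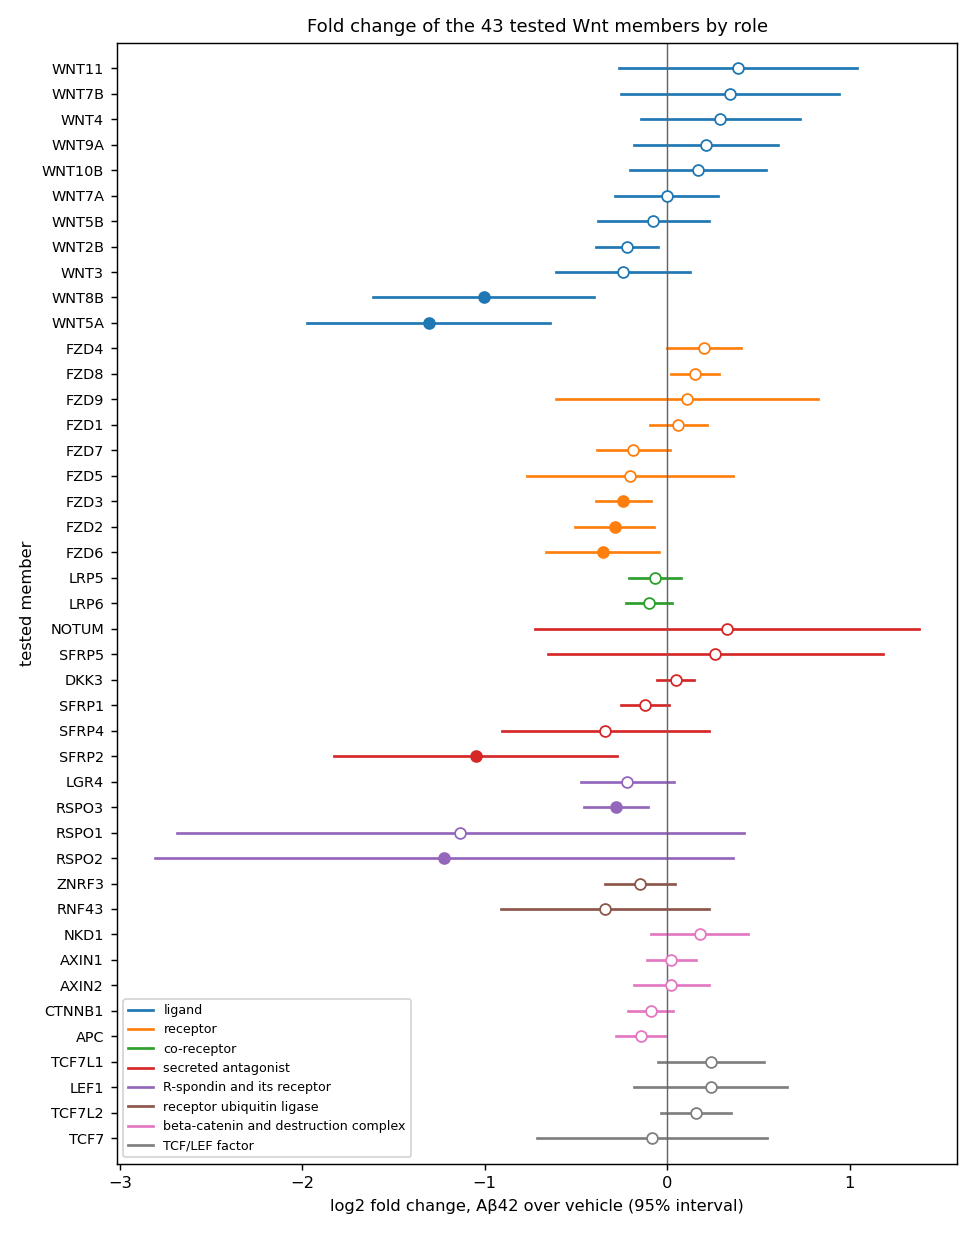
Log2 fold change (Aβ42 over vehicle) of the tested Wnt genes with 95% intervals from edgeR without a block, colored by role, with filled points for genes that passed with the replicate block. WNT5A, WNT8B, SFRP2, RSPO1 and RSPO2 lie below -1, and the RSPO1 and RSPO2 intervals cross 0.

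Ligands made the clearest split within a role. WNT5A and WNT8B lay furthest below vehicle under Aβ42, and WNT7A lay close to it. WNT5A (gene ID 7474), which mostly signals without β-catenin and is made at the hem, measured 3.84, 5.41 and 3.11 CPM in vehicle replicates 1, 2 and 3 and 1.28, 2.43 and 1.26 CPM in Aβ42 replicates 1, 2 and 3. The highest Aβ42 library lay below the lowest vehicle library, and replicate 2 was the highest of each group. Its log2 fold change was -1.31 (SE 0.30, n = 3 per group; edgeR's quasi-likelihood test, adjusted p 0.0734, and 0.000761 with the block).

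WNT8B (7479), a ligand of the hem and the hippocampal primordium, measured 4.93, 5.11 and 4.57 CPM in vehicle replicates 1 to 3 and 1.71, 3.74 and 1.80 CPM under Aβ42. Vehicle libraries were close together, and Aβ42 replicate 2 lay between them and the other treated libraries. The log2 fold change was -1.01 (SE 0.27; edgeR adjusted p 0.0856, and 0.00494 with the block). Without both libraries numbered 2, a choice made after seeing the data, the log2 fold changes were -1.45 for WNT5A and -1.43 for WNT8B. Their edgeR adjusted p was then 0.00329 and 0.00123. Without Aβ42 replicate 1 it was 0.245 and 0.268, and without Aβ42 replicate 3 it was 0.296 and 0.328. WNT2B (7482) differed less, at 27.6, 29.9 and 25.7 CPM in vehicle and 24.6, 23.0 and 23.9 CPM in Aβ42 libraries. These groups were separate, but the log2 fold change of -0.22 (SE 0.08) did not pass in edgeR (adjusted p 0.131, and 0.0743 with the block).

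WNT7A (7476) showed overlapping values, at 9.49, 9.67 and 11.2 CPM in vehicle and 9.57, 9.09 and 11.7 CPM in Aβ42 libraries. Its log2 fold change was -0.0013 with a 95% interval of -0.28 to 0.28, and its sign changed with the scaling and with single libraries. The remaining 7 tested ligands had log2 fold changes between -0.24 and 0.39 and none passed with or without the block. Summed over all ligands, TPM was 51.4, 53.8 and 50.8 in vehicle and 46.3, 47.4 and 46.8 in Aβ42 libraries. All 3 treated sums lay below all vehicle sums, and this sum was not tested.

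Of the 4 tested R-spondin and LGR genes, 2 were lower with the block, and the median over the 4 was -0.71 (log2 fold change). RSPO2 (340419), a stem-cell niche signal that amplifies Wnt responses, measured 13.2, 21.3 and 9.82 CPM in vehicle and 3.66, 12.1 and 3.18 CPM in Aβ42 libraries. Aβ42 replicate 2 lay above vehicle replicate 3, so the groups overlapped, and replicate 2 was the highest of each group. The log2 fold change was -1.22 with an SE of 0.61, and the edgeR adjusted p was 0.299 without the block and 0.00167 with it. Without Aβ42 replicate 2 the log2 fold change was -2.11 (adjusted p 0.0417), and without both libraries numbered 2 it was -1.75 (adjusted p 0.000126). With Aβ42 replicate 1 or 3 left out instead, RSPO2 did not pass in edgeR.

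RSPO3 (84870), the main R-spondin by level, measured 40.9, 43.05 and 36.0 CPM in vehicle and 34.2, 33.6 and 30.9 CPM in Aβ42 libraries. The groups were separate by a small gap between vehicle replicate 3 and Aβ42 replicate 1. Its log2 fold change was -0.28 (SE 0.08; edgeR adjusted p 0.0891, and 0.0124 with the block), and without both libraries numbered 2 it was -0.24 with an adjusted p of 0.0767. The other 2 tested genes of this role did not pass with or without the block. Summed over R-spondins and LGR receptors, TPM was 53.4, 65.5 and 47.7 in vehicle and 33.7, 45.1 and 32.6 in Aβ42 libraries.

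**Figure D3:**
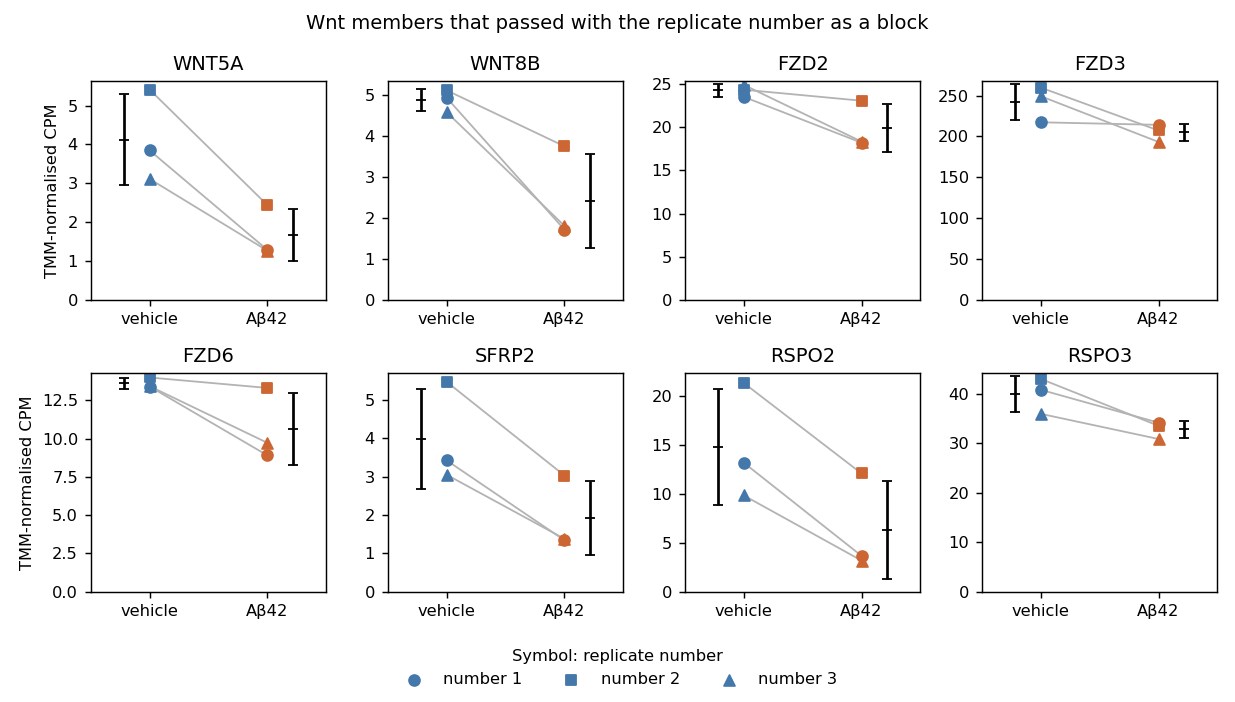
CPM of the 8 Wnt genes that were lower with replicate number as a block, with 1 point per library, a line joining libraries of the same number, and bars for the mean ± SD of 3 libraries. Every line falls from vehicle to Aβ42, and the groups overlap for RSPO2 alone.

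FZD2, FZD3 and FZD6, Frizzled receptors, were lower with the block, by smaller amounts than the ligands above. FZD3 (7976), the receptor with the highest mean level, measured 217, 260.0 and 249 CPM in vehicle and 214, 207 and 193 CPM in Aβ42 libraries. Vehicle replicate 1 lay just above the highest treated library, and on TPM the groups overlapped. The log2 fold change was -0.24 (SE 0.07; edgeR adjusted p 0.0908, and 0.0223 with the block), and DESeq2 gave 0.0215.

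FZD2 (2535), a receptor of both Wnt branches, measured 23.5, 24.4 and 24.9 CPM in vehicle and 18.2, 23.1 and 18.4 CPM in Aβ42 libraries. FZD6 (8323), a receptor of planar cell polarity, measured 13.4, 14.0 and 13.4 CPM in vehicle and 8.90, 13.3 and 9.72 CPM in Aβ42 libraries. In both genes Aβ42 replicate 2 lay almost at the vehicle level and the other treated libraries lay well below it. Log2 fold changes were -0.29 (SE 0.10) for FZD2 and -0.35 (SE 0.14) for FZD6. Their edgeR adjusted p was 0.125 and 0.163 without the block, and 0.0346 and 0.0454 with it. Without both libraries numbered 2, the log2 fold changes were -0.41 and -0.53, with edgeR adjusted p of 0.00896 and 0.00923. Without Aβ42 replicate 1 the edgeR adjusted p was 0.347 for FZD2 and 0.421 for FZD6, and without Aβ42 replicate 3 it was 0.390 and 0.445.

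FZD8 (8325) went the other way, at 64.8, 58.1 and 59.7 CPM in vehicle and 64.6, 69.5 and 69.0 CPM in Aβ42 libraries. Aβ42 replicate 1 lay just below vehicle replicate 1, and the other treated libraries lay above all vehicle libraries. Its log2 fold change of 0.15 (SE 0.06) did not pass in edgeR (adjusted p 0.159, and 0.115 with the block). The remaining 5 tested receptors had log2 fold changes between -0.20 and 0.20 and did not pass in either fit. Co-receptors overlapped between groups: LRP6 (4040) measured 146, 169 and 160.1 CPM in vehicle and 147, 151 and 145 CPM in Aβ42 libraries. LRP5 (4041) measured 44.6, 41.8 and 40.4 CPM in vehicle and 41.7, 40.7 and 38.7 CPM in Aβ42 libraries, and the edgeR adjusted p was 0.311 for LRP6 and 0.555 for LRP5.

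Of the secreted antagonists, SFRP2 (6423), a Wnt-binding decoy made at the antihem on the lateral side of the cortex, was lower with the block. It measured 3.42, 5.47 and 3.05 CPM in vehicle and 1.34, 3.03 and 1.38 CPM in Aβ42 libraries. The groups were separate, but only by the small gap between vehicle replicate 3 and Aβ42 replicate 2. The log2 fold change was -1.05 (SE 0.35; edgeR adjusted p 0.121, and 0.00264 with the block). Without both libraries numbered 2 it was -1.25 (adjusted p 0.00650), and without Aβ42 replicate 2 alone it was -1.54 (adjusted p 0.00361). With Aβ42 replicate 1 or 3 left out instead, SFRP2 did not pass in edgeR.

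SFRP1 (6422) was the most abundant gene of the whole set, at 665, 668 and 702 CPM in vehicle and 609, 680.2 and 582 CPM in Aβ42 libraries. Aβ42 replicate 2 lay within the vehicle range and the other treated libraries below it. Its log2 fold change was -0.12 (SE 0.06; edgeR adjusted p 0.247, and 0.154 with the block), and without both libraries numbered 2 the adjusted p was 0.0242. With Aβ42 replicate 1 or 3 left out instead, SFRP1 did not pass in edgeR. DKK3 (27122) measured 209.7, 212 and 200.03 CPM in vehicle and 209, 214 and 219.5 CPM in Aβ42 libraries. These values overlapped, with a log2 fold change of 0.05 and a 95% interval of -0.05 to 0.15, and on log2(TPM + 1) its sign was the opposite. The remaining 3 tested antagonists did not pass in either fit.

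RNF43 (54894) and ZNRF3 (84133), the ligases that remove Frizzled receptors from the cell surface, did not pass in either fit. RNF43 measured 1.62, 1.88 and 1.52 CPM in vehicle and 1.52, 1.01 and 1.44 CPM in Aβ42 libraries. ZNRF3 measured 21.99, 24.1 and 20.6 CPM in vehicle and 20.8, 20.7 and 18.7 CPM in Aβ42 libraries. RNF43 values touched between the groups and ZNRF3 values overlapped, with edgeR adjusted p of 0.438 and 0.315.

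Inside the cell the values were closer. CTNNB1 (1499) measured 372, 398 and 402 CPM in vehicle and 343, 388 and 369 CPM in Aβ42 libraries. The groups overlapped, and the log2 fold change was -0.09 with a 95% interval of -0.22 to 0.03 (edgeR adjusted p 0.343). APC (324) measured 549, 616 and 594 CPM in vehicle and 508, 574 and 512 CPM in Aβ42 libraries, again overlapping. Its log2 fold change of -0.14 (SE 0.06) had an unadjusted p of 0.0413, an edgeR adjusted p of 0.193, and 0.0595 with the block. Activity of the pathway runs through β-catenin protein, which these RNA values do not measure.

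AXIN2 (8313) and NKD1 (85407), the target genes that feed back on the pathway, fall outside the rule for naming genes and were chosen after their values had been seen. AXIN2 measured 25.4, 30.3 and 29.7 CPM in vehicle and 30.1, 25.9 and 30.8 CPM in Aβ42 libraries. NKD1 measured 7.81, 8.45 and 7.81 CPM in vehicle and 10.1, 8.25 and 8.88 CPM in Aβ42 libraries. Both overlapped between groups. Log2 fold changes were 0.02 (95% interval -0.18 to 0.23) for AXIN2, whose sign changed on the TPM scale and with single libraries, and 0.18 (95% interval -0.09 to 0.44) for NKD1, with edgeR adjusted p of 0.899 and 0.384.

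TCF7L2 (6934), the most abundant of the nuclear TCF factors, measured 14.2, 13.6 and 14.3 CPM in vehicle and 16.0, 16.2 and 14.8 CPM in Aβ42 libraries. All treated libraries lay above all vehicle libraries on CPM, but the log2 fold change of 0.16 did not pass in edgeR (adjusted p 0.292 in both fits). LEF1 (51176) measured 5.53, 4.68 and 7.38 CPM in vehicle and 7.86, 7.25 and 5.64 CPM in Aβ42 libraries, overlapping between groups (log2 fold change 0.24, edgeR adjusted p 0.459). AXIN1, TCF7 and TCF7L1, the other tested genes of these roles, overlapped between groups and did not pass in either fit.

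A fit blocked on replicate number favours genes that are lower within every pair, so that property of the 8 genes it called is no separate result. Vehicle replicate 2 was the highest vehicle library in 7 of them and Aβ42 replicate 2 the highest treated library in 6, and over all 976 genes lower in that fit the shares were 75% and 89.4%. Without Aβ42 replicate 2, edgeR called 11 Wnt genes lower (the 8 with APC, SFRP1 and RSPO1), and 11.6% of all tested genes were lower in that fit. Leaving out any other single library gave 0 Wnt genes. Without both libraries numbered 2, 7 were lower (WNT5A, WNT8B, FZD2, FZD6, SFRP1, SFRP2 and RSPO2), and 8.5% of all tested genes were. In the paired fit, leaving out the pair numbered 1 reduced the 8 to 2 (FZD3 and RSPO2), and leaving out the pair numbered 3 reduced them to 3 (WNT5A, SFRP2 and RSPO2). Shares over all tested genes are not given here for the left-out pairs or for the other single libraries. These lower counts therefore cannot be read as particular to the Wnt genes.

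The rest of the pathway was read from a list of 102 further genes, of which 91 were tested. At an unadjusted p under 0.05, 20 were higher and 11 lower, none had an edgeR adjusted p under 0.05, and with the block 13 were higher and 6 lower. The lower counts were near the shares over all tested genes given above (11.5% unadjusted and 7.05% with the block), and the higher counts stood beside 12.4% and 7.12%. Further receptors had 6 of 9 higher and 0 lower at an unadjusted p under 0.05, and among further antagonists 5 of 10 were higher and 1 lower. The smallest p-values on the higher side were those of TLE2, a Groucho co-repressor of TCF factors (log2 fold change 0.37), CAMK2D, a calcium-dependent kinase (0.24), GPC6, a glypican (0.25), KREMEN1, a Dickkopf receptor (0.24), and PTK7, a Wnt pseudokinase co-receptor (0.23). On the lower side they were those of EP300, an acetyltransferase co-activator of β-catenin (-0.22), MACF1, a cytoskeletal linker (-0.28), APC2, the neural relative of APC (-0.29), VANGL1, a planar polarity protein (-0.40), and PLCB4, a phospholipase (-0.20). With the block all 10 except PLCB4 passed, at edgeR adjusted p between 0.0016 and 0.0223.

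Markers of other cell types in these organoids were read by list beside the Wnt genes, and their part in the result was not tested. Without the block no marker had an edgeR adjusted p under 0.05. At an unadjusted p under 0.05, 22 of the 70 tested markers were lower and 5 higher, against the 11.5% and 12.4% of all tested genes given above. DESeq2 without a block did pass some markers. Among them were EOMES (DESeq2 adjusted p 0.00428), TOP2A (0.000574), HOPX (0.00697) and MAP2 (0.0082), which were lower, and BMP7 (0.00483), which was higher. The share of all tested genes that DESeq2 passed is not given here. Of the 9 cortical hem markers, which include no Wnt gene, 1 was lower with the block (LMX1A, log2 fold change -0.71) and 1 higher (BMP7, 0.29), where 7.05% and 7.12% of all tested genes were. Their summed level was 62.4 to 63.1 TPM in vehicle and 67.2 to 70.4 TPM in Aβ42 libraries, and BMP7 alone made up 70.03% to 80.6% of it. The other 8 hem markers summed to 17.2, 18.8 and 14.5 TPM in vehicle and 13.0, 15.9 and 14.1 TPM in Aβ42 libraries, which overlapped.

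Of the 8 choroid plexus markers tested, 3 were lower with the block (CLIC6, OTX2 and HTR2C) and 0 higher. OTX2, a factor of the choroid plexus and hem region, measured 9.85, 16.2 and 7.20 CPM in vehicle and 4.14, 12.5 and 4.32 CPM in Aβ42 libraries. As with RSPO2, replicate 2 was the highest of each group. This was common among the 976 genes lower with the block, at 75% for vehicle replicate 2 and 89.4% for Aβ42 replicate 2. The list was not uniform: AQP1 and SLC4A5 had log2 fold changes of 0.59 and 0.28, and neither passed in either fit. The summed level was 3367 to 7608 TPM in vehicle and 2854 to 6687 TPM in Aβ42 libraries, but TTR made up 97.97% to 98.5% of it. The other 8 listed markers summed to 68.2, 121 and 59.3 TPM in vehicle and 53.8, 106 and 48.3 TPM in Aβ42 libraries, with replicate 2 the highest of each group.

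Progenitor lists differed from each other. All 7 proliferation markers were lower with the block, with a summed level of 377 to 447 TPM in vehicle and 242 to 337 TPM in Aβ42 libraries, which did not overlap. Of the 5 markers of intermediate progenitors, the neuron-producing daughters of radial glia, 3 were lower with the block, NEUROG2 had a log2 fold change of 0.04, and the list summed to 201 to 223 TPM in vehicle and 133 to 158.5 TPM in Aβ42 libraries. Of the 8 radial glia markers 3 were lower with the block, but their median log2 fold change was 0.10 and their sums overlapped, at 7646 to 7962 TPM in vehicle and 7894 to 8249 TPM in Aβ42 libraries. Other lists also held genes lower with the block: 2 of 11 tested dorsal forebrain, 2 of 7 neuron, 2 of 6 astrocyte and 1 of 5 mesenchyme markers. None in these 4 lists was higher. Their median log2 fold changes were -0.0008, 0.0044, -0.36 and -0.44. Lower markers were therefore not confined to the hem, choroid plexus and progenitor lists.

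**Figure D4:**
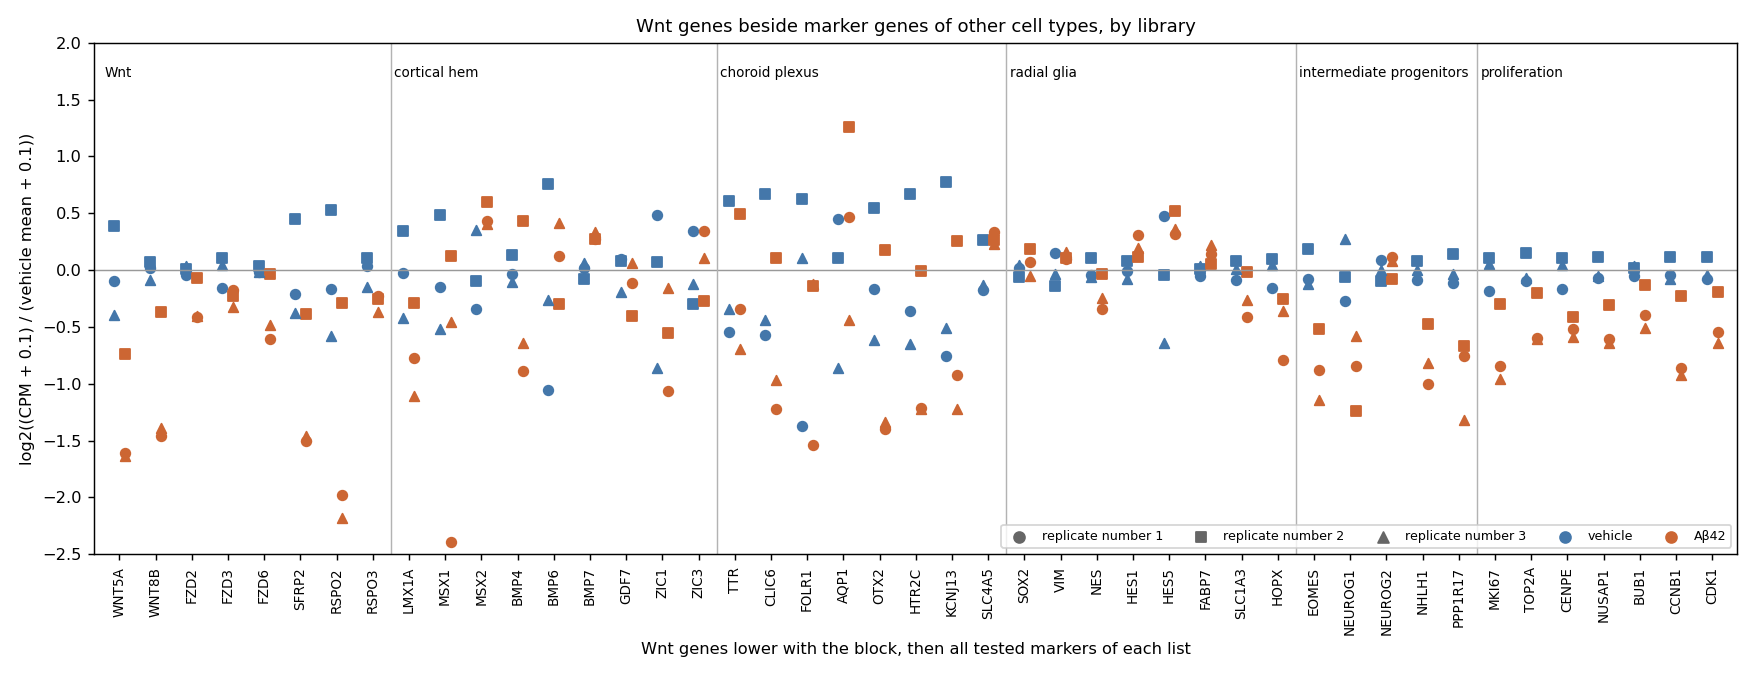
Log2 of each library over the vehicle mean (CPM, with 0.1 added) for the 8 Wnt genes lower with the block and for every tested marker of the cortical hem, choroid plexus, radial glia, intermediate progenitors and proliferation, with symbols for replicate number. All 7 proliferation markers lie lower under Aβ42 in all 3 pairs, whereas the hem and choroid plexus lists hold genes on both sides of 0.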

How the data were processed

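For each gene and library the authors deposited a count and a TPM value. Counts were whole in 86.9% to 87.5% of entries per library and carried fractions elsewhere, so the deposited column was read as estimated counts and rounded. In 40 of the 43 tested Wnt genes every deposited value was whole. TPM is scaled for gene length and library total in the deposited values, and served for levels between genes. The submitters' processing notes name FastQC, STAR 2.7.11b, featureCounts 2.0.6 and GRCh38 without their roles, and the annotation, the options and any use of strand in counting are not given in the sources used here. Reads of overlapping or antisense genes may therefore be included.

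Genes were filtered with filterByExpr, scaled by TMM and compared with edgeR 4.0.16 (quasi-likelihood test, robust dispersion, group as the only term, two-sided) in R 4.3.3, with Benjamini-Hochberg adjustment over 13842 genes and a threshold of 0.05. SE is the size of a log2 fold change over the square root of its F statistic. DESeq2 1.42.0, limma 3.58.1, other scalings, filters, pseudocounts, left-out libraries and the replicate block were alternatives. The procedure was also run on simulated data in which same-numbered libraries shared an effect by construction. That simulation therefore cannot bear on whether the real libraries are paired. Replicate numbers were taken to pair libraries, which the labels do not state. The reason was that the correlation of same-numbered deviations from the group means was above 0.1 for every number. These correlations were 0.181, 0.388 and 0.129, over the 12186 genes averaging 50 or more counts. Libraries of unlike numbers were not compared in this way. The labels speak of independent replicates without saying how they were grown apart, and no molecular identifiers are mentioned, so precision covers counting error and the spread between these libraries.

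Values in every library are given for Wnt genes past an adjusted p of 0.05 with or without the block, for those at an unadjusted p under 0.05, and for the 2 highest in TPM of each role. Other pathway genes are named at an unadjusted p under 0.05, at most 5 in each direction. The genes and lists were chosen with earlier results of these data known. Leaving out the libraries or pairs numbered 2, and the pairs numbered 1 and 3, was chosen after seeing the data. The result of 1 marker gene is not reported here.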

Additional observations from a re-analysis of the deposited data

How the results depend on the processing

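With 0 Wnt genes past the threshold in edgeR without a block, the count became 1 with no filter on low counts (WNT5A), 1 with DESeq2 (FZD3), 8 with the replicate block, 7 without both libraries numbered 2, and 0 to 11 with single libraries left out, reaching 11 only without Aβ42 replicate 2. Shares over all tested genes are given above for the fits with and without the block, without Aβ42 replicate 2 and without both libraries numbered 2. They are not given for the other alternatives, including the left-out pairs. Wnt genes at an unadjusted p under 0.05 numbered 10, and 5 to 16 with single libraries left out. For the other pathway genes that count was 31, and 14 to 36. Groups did not overlap for 12 Wnt genes, and for 14 to 25 with single libraries left out and 28 without both libraries numbered 2, where fewer libraries make separation easier. The share over all tested genes is given above for all 6 libraries only, so the counts with fewer libraries have no background beside them. The count of Wnt genes without overlap was not recomputed under alternatives that change only the test or the scaling. The 8 genes of the replicate block became 2 without the pair numbered 1, 6 without the pair numbered 2 and 3 without the pair numbered 3, and the cause was not tested.

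Over 23 genes and 17 alternatives, 350 of 391 log2 fold changes kept their direction and, where an adjusted p was given, their side of the threshold. Another 27 passed in the same direction, and 14 changed sign, all in WNT7A, DKK3 and AXIN2, which lay near 0 throughout. Values with the same direction but no adjusted p from DESeq2 were counted as kept. Many of the 23 genes were named for passing with the block or for an unadjusted p under 0.05, and the block is among the 17 alternatives. These counts are therefore partly fixed by that choice. WNT7A was -0.0013 and became 0.0139 with upper-quartile scaling, 0.0118 and 0.0133 on log2(TPM + 1) and log2(TPM + 0.1), 0.0383 without both libraries numbered 2, and -0.1185 to 0.0797 with single libraries left out. DKK3 became -0.0010 on both TPM scales. AXIN2 became -0.0198 and -0.0207 on the TPM scales and -0.0526 to 0.0973 with single libraries left out. DESeq2 gave no adjusted p for 17 of the 43 Wnt genes, among them WNT5A, WNT8B and SFRP2, and those 3 are not counted as lost. The filter on low counts kept the 12 genes with 0 to 16 counts in each library out of the test, and limited depth and low expression were not told apart.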

Other observations

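WLS, the carrier that brings Wnt ligands to the cell surface, was among the other pathway genes but outside the naming rule, and was chosen after its values had been seen. It measured 20.4, 27.4 and 20.6 CPM in vehicle and 12.5, 20.4 and 13.3 CPM in Aβ42 libraries. Aβ42 replicate 2 reached the level of vehicle replicate 1, and the other treated libraries lay below all vehicle libraries. The log2 fold change was -0.56 (SE 0.21), with an edgeR adjusted p of 0.161 without the block and 0.000735 with it.

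DKK2, a Dickkopf antagonist that binds LRP5 and LRP6, had too few counts to be tested with the filter. It had 6, 11 and 7 counts in vehicle and 2, 0 and 1 counts in Aβ42 libraries, with no overlap. In edgeR with no filter on low counts its log2 fold change was -2.86 (SE 0.75, adjusted p 0.0585), and it was chosen after its values had been seen. LGR5, a receptor of R-spondins, had 0, 1 and 0 counts in vehicle and 2, 2 and 3 counts in Aβ42 libraries (adjusted p 0.263 in the same fit), all at or below the level that a count of 0 allows.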
